A study of Mus musculus with 7 samples.

Results

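The interferon regulatory factors (Irf genes) are a family of transcription factors that switch on interferons and the genes that answer to them, and some members also direct the development of blood cells. The members were all genes whose symbol is Irf followed by 1 digit, each represented by its brightest transcript cluster on average over 7 arrays, and the 8 described here (Irf1, Irf2, Irf3, Irf4, Irf5, Irf7, Irf8 and Irf9) were among 20719 genes measured. Affymetrix arrays measured the RNA of fluorescent cells sorted from the adrenal glands of 6-week-old male C57BL/6J mice. The SF1+ group (4 arrays) carried the Sf1:eGFP transgene, in which a large genomic fragment of Nr5a1, the gene for steroidogenic factor 1, drives eGFP. The Wnt+ group (3 arrays) carried TCF/Lef:H2B-GFP, in which repeated TCF/LEF sites before a minimal Hspa1b promoter drive a histone 2B and GFP fusion and so report canonical Wnt signalling. Each array held RNA from 1 sort of viable cells from 10 pooled adrenals, and 5 ng of total RNA was amplified for it. The labels name 4 sorts for each genotype, and for Wnt+ 3 of them were analysed here. Each group was a different transgenic line, so line, reporter and cell population cannot be told apart. The comparison addressed how cells picked by the Wnt reporter differ in expression from cells picked by the SF1 reporter.

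All values are log2 expression values of the robust multi-array average, and each difference is Wnt+ minus SF1+ with the standard error (SE) of the limma fit and a p-value adjusted over all 20719 genes by the Benjamini-Hochberg method. A gene passed the test at an adjusted p below 0.05. Array medians over these genes lay between 3.13 and 3.23, which marks the dim end of the scale, and no pair of arrays was identical. Nr5a1, the gene behind the SF1+ sort, averaged 5.75 ± 0.47 (SD, n = 4) among libraries labelled SF1+ and 7.30 ± 0.38 (SD, n = 3) among those labelled Wnt+, a difference of 1.55 (SE 0.29, limma adjusted p = 0.0938) that goes against the label's order. Axin2, a standard target of canonical Wnt signalling, was at 4.16 ± 0.49 in SF1+ and 4.83 ± 0.77 in Wnt+, a difference of 0.67 (SE 0.41, limma adjusted p = 0.50). The groups are therefore called by the names of the libraries as labelled. All 12 adrenocortical markers and all 10 chromaffin markers had positive differences, with 1 and 0 past the test, against 0.0531% of all genes past it and higher.

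In the interferon system, cells that sense viral or self nucleic acid through Toll-like receptors, RIG-I-like receptors or cGAS activate kinases that phosphorylate IRF3, IRF5 and IRF7, which then induce type I interferon. Interferon acts on its receptor through JAK kinases to form ISGF3, a complex of STAT proteins, STAT2 among them, with IRF9, which turns on interferon-stimulated genes, Irf7 among them. IRF1 and IRF2 bind the same kind of site, IRF1 as an activator induced by interferon gamma and IRF2 mainly as its antagonist, while IRF4 and IRF8 pair with the ETS factors PU.1 and SPI-B and with BATF factors in lymphocytes, macrophages and dendritic cells. Plasmacytoid dendritic cells are known for high constitutive IRF7 and IRF8.

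Irf7 and Irf8 fell in Wnt+ relative to SF1+, Irf7 by 3.06 and Irf8 by 2.33 on the log2 scale. Of the 8 members, 2 passed the test and both were lower, against 0.256% of all genes tested (53 genes), of which 0.203% were lower and 0.0531% higher. The other 6 members had adjusted p-values between 0.0715 and 0.27. Negative differences were found in 7 members and a positive one in Irf3. All 8 members were below an unadjusted p of 0.05, against 15.5% of all genes: 7 were lower, against 7.89%, and 1 was higher, against 7.61%. In 6 members every Wnt+ array lay below every SF1+ array, against 7.07% of all genes, and no member had the opposite order, against 7.04%. The median difference over the members was -0.91, and over all genes it was 0.02. In sorted bulk RNA, fewer cells of a type and less RNA per cell cannot be told apart.

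**Figure D1:**
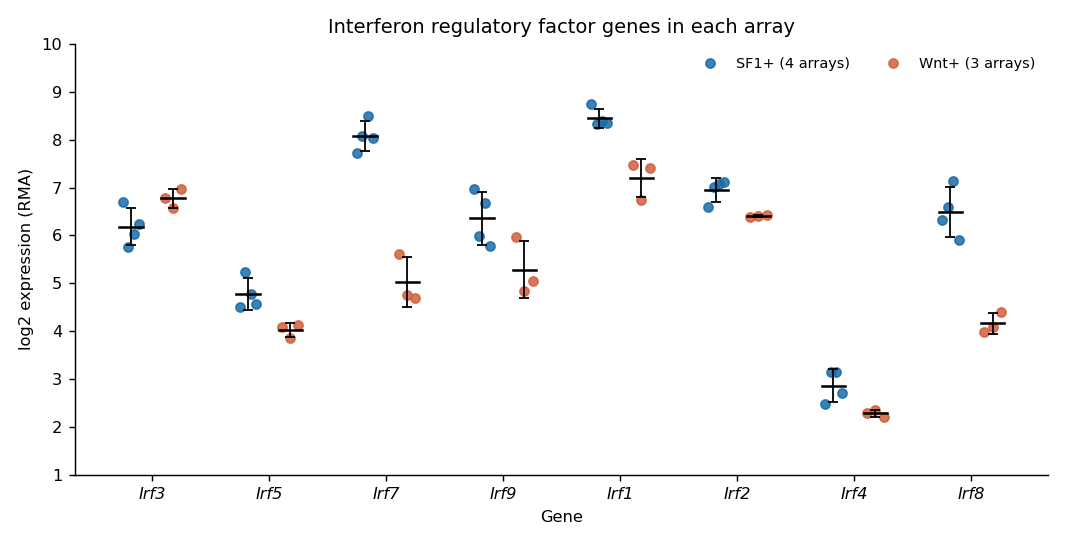
Log2 expression of the 8 interferon regulatory factor genes on each array, with SF1+ (4 arrays) and Wnt+ (3 arrays) as points, group means as horizontal lines and SDs as bars. Irf7 runs from 7.71 to 8.49 in SF1+ and from 4.68 to 5.62 in Wnt+, while the groups overlap for Irf3 and Irf9.

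Among the factors activated by nucleic acid sensing, Irf7 (Entrez 54123, transcript cluster 10569102), the amplifier of type I interferon, was at 7.71, 8.08, 8.49 and 8.03 on the SF1+ arrays and at 5.62, 4.75 and 4.68 on the Wnt+ arrays. Every SF1+ array was high and every Wnt+ array low, with 2.09 between the lowest SF1+ and the highest Wnt+ array. The group means were 8.08 ± 0.32 (SD, n = 4) and 5.02 ± 0.52 (SD, n = 3), and Irf7 fell by 3.06 (SE 0.27, 95% confidence interval -3.71 to -2.41, limma adjusted p = 0.0275), which is 8.35-fold lower. By p it ranked 8 among all genes, and by the size of its fall it ranked 12. The call was lost in several omissions of a single array, while the difference stayed between -3.36 and -2.89. Leaving out SF1+ replicate 2, 3 or 4 gave limma adjusted p-values of 0.122, 0.108 and 0.0816, and leaving out Wnt+ replicate 2 or 3 gave 0.0663 and 0.0789. In the same omissions 1, 1, 3, 8 and 2 genes of the whole set passed, against 53 with all arrays.

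Irf5 (Entrez 27056), which acts below Toll-like receptors in inflammatory cytokine induction, was at 4.51, 5.24, 4.79 and 4.57 in SF1+ and at 4.08, 3.86 and 4.14 in Wnt+. The groups did not overlap, and the lowest SF1+ array stood 0.37 above the highest Wnt+ array. The difference was -0.75 (SE 0.19, limma adjusted p = 0.143). Irf3 (Entrez 54131), the factor present in most cells before infection that starts interferon beta expression, was at 6.69, 5.76, 6.04 and 6.25 in SF1+ and at 6.78, 6.57 and 6.97 in Wnt+. Its groups overlapped, because SF1+ replicate 1 lay above Wnt+ replicate 2. The difference was 0.59 (SE 0.22, 95% confidence interval 0.07 to 1.11, limma adjusted p = 0.27), with Wnt+ the higher group.

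Irf9 (Entrez 16391), the DNA-binding subunit of ISGF3, was at 6.97, 5.99, 6.68 and 5.78 in SF1+ and at 5.97, 4.84 and 5.06 in Wnt+. SF1+ replicates 1 and 3 were the high arrays, and Wnt+ replicate 1 lay just below SF1+ replicate 2 and above SF1+ replicate 4, so the groups overlapped. The difference was -1.07 (SE 0.38, limma adjusted p = 0.243). Its partner Stat2 was at 7.13, 6.17, 6.98 and 5.84 in SF1+ and at 6.05, 5.12 and 5.75 in Wnt+, a difference of -0.89 (SE 0.37, limma adjusted p = 0.32). As in Irf9, SF1+ replicates 1 and 3 were high and the groups overlapped.

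Irf1 (Entrez 16362, transcript cluster 10376060), the activator induced by interferon gamma, was at 8.74, 8.33, 8.38 and 8.35 in SF1+ and at 7.47, 6.75 and 7.40 in Wnt+. Every SF1+ array was at least 0.86 above every Wnt+ array, and SF1+ replicate 1 was the highest. The difference was -1.24 (SE 0.20, 95% confidence interval -1.72 to -0.77, limma adjusted p = 0.0715). Without Wnt+ replicate 1 the limma adjusted p was 0.0492, and in the other omissions of an array it ran from 0.0783 to 0.184. A second transcript cluster that the workbook assigns to Irf1 averaged 6.68 ± 0.58 over the SF1+ arrays (SD, n = 4) and 5.92 ± 0.70 over the Wnt+ arrays (SD, n = 3), a smaller difference of -0.76 of the same sign. On this cluster the groups overlapped, because Wnt+ replicate 3 (6.41) lay above SF1+ replicates 2 (6.08) and 3 (6.30). Irf2 (Entrez 16363), the antagonist of Irf1, was at 6.59, 7.00, 7.08 and 7.11 in SF1+ and at 6.40, 6.41 and 6.43 in Wnt+. The Wnt+ arrays lay close together and below all SF1+ arrays, by as little as 0.16 for SF1+ replicate 1. The difference was -0.54 (SE 0.14, limma adjusted p = 0.148). Without SF1+ replicate 1 the limma adjusted p was 0.0437, and in the other omissions of an array it ran from 0.187 to 0.316.

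Irf8 (Entrez 15900, transcript cluster 10576034), the factor required for the development of several dendritic cell and monocyte lineages, was at 6.33, 6.59, 7.14 and 5.91 in SF1+ and at 3.99, 4.09 and 4.40 in Wnt+. All SF1+ arrays were high and all Wnt+ arrays low, with 1.5 between the nearest arrays. The group means were 6.49 ± 0.52 (SD, n = 4) and 4.16 ± 0.22 (SD, n = 3), and Irf8 fell by 2.33 (SE 0.28, 95% confidence interval -3.00 to -1.67, limma adjusted p = 0.0443), which is 5.04-fold lower. This call too was lost in omissions of a single array. Leaving out SF1+ replicate 1, 2, 3 or 4 gave limma adjusted p-values of 0.0535, 0.158, 0.114 and 0.0816, and leaving out Wnt+ replicate 2 or 3 gave 0.0976 and 0.0889, with differences from -2.53 to -2.12 over all 7 omissions.

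Irf4 (Entrez 16364), which acts in plasma cells, activated T cells and some dendritic cells, was at 2.47, 3.14, 3.14 and 2.70 in SF1+ and at 2.29, 2.35 and 2.21 in Wnt+. It lay above the array median on 1 of 7 arrays, where the other 7 members did so on all 7. The groups were separated by 0.12, at a level where RMA values are compressed. The difference was -0.58 (SE 0.18, limma adjusted p = 0.206).

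**Figure D2:**
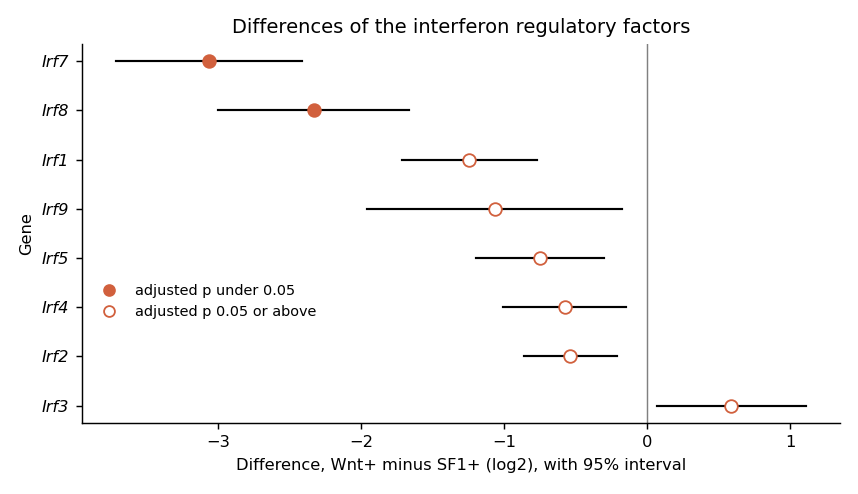
Log2 difference (Wnt+ minus SF1+) of each family member with its 95% confidence interval from the limma fit, filled where the adjusted p was below 0.05. Irf7 (-3.06) and Irf8 (-2.33) lie farthest below 0 and Irf3 (0.59) is the only member above it.

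The promoters of the members were set beside these values, since the family's genes are themselves targets of STAT and IRF factors. RefSeq windows (GRCm38.p6) from 250 bases before to 50 bases after an annotated start matched all 8 members in 11 windows, and 3 motifs were searched on both strands among 32841 such windows. The GAS motif TTCNNNGAA, the letters of interferon gamma activated sites, stood in 8.3% of all windows and in 3 of the 11 member windows. These were windows of Irf1 (-90 to -82 from the start), Irf2 (-224 to -216) and Irf8 (-171 to -163 and -153 to -145). The second windows of Irf1 and Irf8 held none of the 3 motifs. A tandem motif of 2 copies of GAAA with 2 bases between them, as IRF proteins bind it, stood in 3.44% of all windows, and the ETS-IRF composite, GGAA and then GAAA after 2 bases, stood in 2.72%. Of the members, Irf2 held both, at -241 to -232 and -247 to -238, and these matches overlap. None of the 3 motifs was found in the windows of Irf3, Irf4, Irf5, Irf7 or Irf9, which says only that these letters are not there. A match is a string of letters, and binding was not measured. The sequences are shown 5′ to 3′ on the gene's strand with the matches in capitals, for the 3 members with a match and for Irf7, which had the largest difference and no match.
Irf1 at chr11:53769879-53769977 (plus strand): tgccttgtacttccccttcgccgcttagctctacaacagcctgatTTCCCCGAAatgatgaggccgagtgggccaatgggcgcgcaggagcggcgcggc
Irf8 at chr8:120736142-120736258 (plus strand): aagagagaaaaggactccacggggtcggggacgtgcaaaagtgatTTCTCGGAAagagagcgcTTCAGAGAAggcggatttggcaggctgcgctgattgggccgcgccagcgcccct
Irf2 at chr8:46739495-46739574 (plus strand): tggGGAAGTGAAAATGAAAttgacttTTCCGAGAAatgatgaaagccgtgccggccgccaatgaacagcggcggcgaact
Irf7 at chr7:141266425-141266524 (minus strand): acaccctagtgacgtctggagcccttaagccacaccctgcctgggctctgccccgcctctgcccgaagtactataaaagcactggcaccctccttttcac
The 3 members with a GAS match had differences of -1.24 (Irf1), -0.54 (Irf2) and -2.33 (Irf8). Those without a match had differences of -3.06 (Irf7), -1.07 (Irf9), -0.75 (Irf5), -0.58 (Irf4) and 0.59 (Irf3). A link between the motifs and the differences was not tested.

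Upstream of the family, 21 interferon genes were measured, and 10 of them were below the array median on every array. Of the 21, 1 (Ifng) fell, against 0.203% of all genes. Ifng was at 4.55, 4.63, 5.19 and 4.19 in SF1+ and at 2.53, 2.85 and 3.03 in Wnt+, a difference of -1.83 (SE 0.24, limma adjusted p = 0.0495). Ifng is the type II interferon made by T and natural killer cells. Ifnb1, the interferon that IRF3 and IRF7 induce, ranged from 3.29 to 6.37 in SF1+ and from 2.56 to 6.06 in Wnt+, so its arrays differed by more within the groups than between them (difference 0.04, SE 1.07, limma adjusted p = 0.994). The median difference over the 21 genes was -0.09.

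Of 22 measured sensors, adaptors and kinases that act on IRF3, IRF5 and IRF7, 1 fell, against 0.203% of all genes, and 0 rose. Negative differences were found in 16, and the list median was -0.22. With an unadjusted p below 0.05, 5 were lower, against 7.89% of all genes, and 1 was higher, against 7.61%. The gene that fell was Tlr3, the endosomal receptor for double-stranded RNA, with a difference of -1.33 (SE 0.16, limma adjusted p = 0.0443). Dhx58, a RIG-I-like receptor, differed by -0.92 (limma adjusted p = 0.113), and Tlr9, the receptor for CpG DNA, by -0.85 (limma adjusted p = 0.23). Other genes that lead to IRF7 or IRF3 also missed the test. Tlr7, the receptor for single-stranded RNA, differed by -0.15 (limma adjusted p = 0.924), the kinase Tbk1 by -0.21 (limma adjusted p = 0.659) and the adaptor Myd88 by -0.69 (limma adjusted p = 0.333).

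Of the 12 receptor, JAK and STAT genes reported here, 0 passed the test and 11 had negative differences, with a median of -0.55. At an unadjusted p below 0.05, 7 of the 12 were lower, against 7.89% of all genes. Ifngr2, a chain of the interferon gamma receptor, differed by -0.85 (limma adjusted p = 0.126), and both type I receptor chains had similar differences, Ifnar1 of -0.49 (limma adjusted p = 0.217) and Ifnar2 of -0.50 (limma adjusted p = 0.163).

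Downstream, all 24 interferon-stimulated genes bound by ISGF3 had negative differences, with a median of -1.70. The test was passed by 3 of them, all lower, against 0.203% of all genes. At an unadjusted p below 0.05, 21 of 24 were lower, against 7.89% of all genes. In 19 no Wnt+ array reached an SF1+ array, against 7.07% of all genes. Averaged over the 24 genes, the SF1+ arrays were at 6.93, 6.87, 7.02 and 6.40 and the Wnt+ arrays at 5.76, 4.91 and 4.97, so that Wnt+ replicate 1 was the nearest to SF1+, as it was for Irf7 and Irf9. The 3 that fell were Rsad2, the antiviral enzyme viperin, by 1.90 (SE 0.22, limma adjusted p = 0.0405), Bst2, the virus tether that also marks plasmacytoid dendritic cells in mice, by 1.13 (SE 0.13, limma adjusted p = 0.0424), and Ifit3, an RNA-binding antiviral protein, by 2.03 (SE 0.27, limma adjusted p = 0.0495). Usp18, a brake on the type I receptor, differed by -1.68 (limma adjusted p = 0.0732). Isg15, a ubiquitin-like modifier, differed by -1.46 (SE 0.49, limma adjusted p = 0.224), and its groups overlapped.

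Leaving out single arrays ended these calls as it did those of Irf7 and Irf8. Of the 7 omissions, only that of Wnt+ replicate 1 kept Ifng, Tlr3, Rsad2, Bst2 and Ifit3 past the test, and their highest limma adjusted p-values over the omissions were 0.158, 0.148, 0.139, 0.133 and 0.158. All kept their sign.

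The 15 genes listed as controlled by IRF1 were mostly genes of major histocompatibility complex class I presentation, with others such as Casp1 and Cd274. None of the 15 passed the test (lowest limma adjusted p = 0.0561), although all 15 had negative differences, with a median of -0.79. At an unadjusted p below 0.05, 11 of the 15 were lower, against 7.89% of all genes. Psmb8, an immunoproteasome subunit, differed by -1.02 (SE 0.14), and Tap1, the peptide transporter, by -1.81 (SE 0.33, limma adjusted p = 0.091). Cd274, the gene of PD-L1, which is induced through IRF1, differed by -1.77 (limma adjusted p = 0.0711).

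Of 17 partners and lineage factors that act with IRF4 and IRF8, 0 passed the test, and 16 had negative differences, with a median of -0.60. At an unadjusted p below 0.05, 7 of the 17 were lower, against 7.89% of all genes. Spib, the ETS factor of plasmacytoid dendritic cells and B cells, was at 4.52, 5.10, 5.55 and 4.27 in SF1+ and at 2.57, 2.47 and 2.73 in Wnt+. The groups stood apart, and the difference was -2.27 (SE 0.30, limma adjusted p = 0.0501). Spi1, which encodes PU.1, was at 3.45, 5.71, 5.04 and 5.22 in SF1+ and at 3.75, 3.38 and 3.83 in Wnt+, a difference of -1.20 (SE 0.50, limma adjusted p = 0.317). Here SF1+ replicate 1 lay among the Wnt+ arrays, which it did not do for Irf8 or Spib. Batf2, a BATF family factor induced by interferon, differed by -2.01 (limma adjusted p = 0.076), Tcf4, which specifies plasmacytoid dendritic cells, by -0.78 (limma adjusted p = 0.109), and Batf3, a factor of cross-presenting dendritic cells, by -0.04 (limma adjusted p = 0.938).

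**Figure D3:**
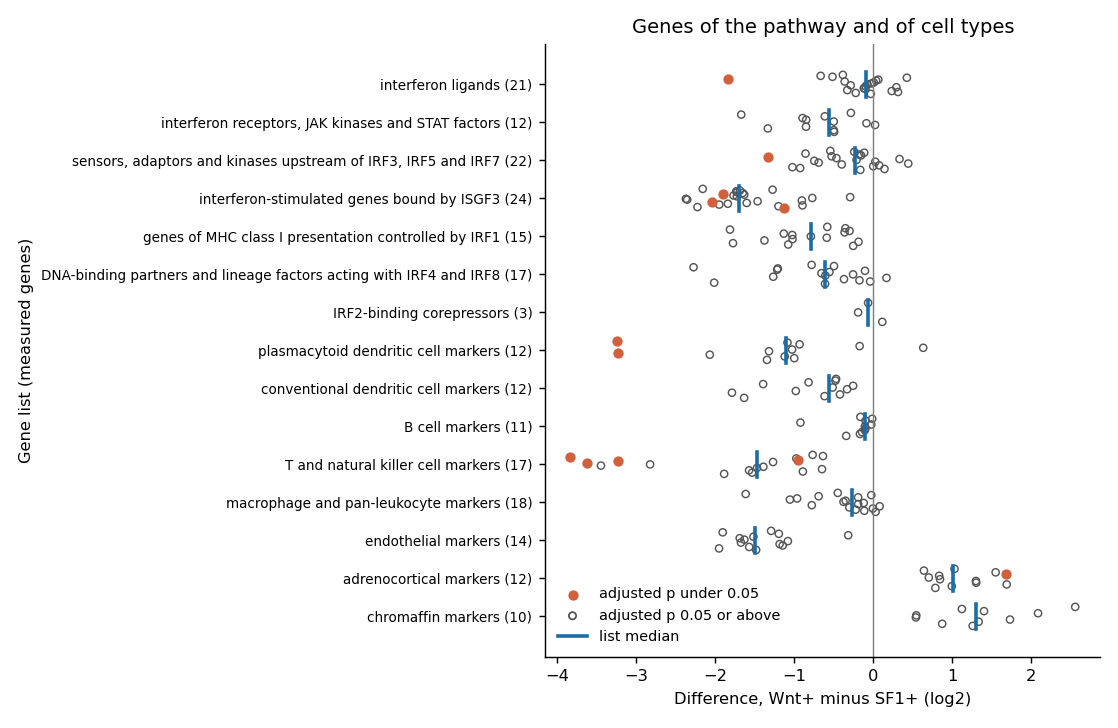
Log2 difference (Wnt+ minus SF1+) of each measured gene in the pathway and cell type lists, one point per gene, filled where the limma adjusted p was below 0.05, with the list median as a vertical bar. Medians run from -1.70 for the interferon-stimulated genes to 1.30 for the chromaffin markers, and that of the interferon ligands (-0.09) lies close to the median of all genes (0.02).

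Among the markers of blood and vessel cells, calls were found in the plasmacytoid dendritic cell and the T and natural killer cell lists, and the part of any marker list in the Irf differences was not tested. Of 12 plasmacytoid dendritic cell markers, 2 fell, against 0.203% of all genes, and 11 had negative differences. Among the 12, 10 were lower at an unadjusted p below 0.05, against 7.89% of all genes, and 1 was higher, against 7.61%. In 10 of the 12 every Wnt+ array lay below every SF1+ array, against 7.07% of all genes. The same order held in 15 of 17 T and natural killer, 8 of 12 conventional dendritic and 9 of 14 endothelial cell markers. For macrophage and pan-leukocyte markers it was 2 of 18, and for B cell markers 1 of 11. The mean level of the plasmacytoid dendritic cell markers was 5.03 to 5.68 in SF1+ and 3.93 to 4.28 in Wnt+, with 1 marker below the array median on every array. Siglech, a lectin of these cells, was at 6.43, 6.43, 6.51 and 6.84 in SF1+ and at 3.43, 3.11 and 3.39 in Wnt+, and it fell by 3.24 (SE 0.14, limma adjusted p = 0.00123). It passed the test in all 7 omissions of an array, with a highest limma adjusted p of 0.0187. Klk1 fell by 3.23 (SE 0.35, limma adjusted p = 0.0396), with calls only without SF1+ replicate 1 or Wnt+ replicate 1. Ly6d differed by 0.64 in the opposite direction (limma adjusted p = 0.0871), with every Wnt+ array above every SF1+ array.

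Of 17 T and natural killer cell markers, 4 fell, against 0.203% of all genes, and 17 had negative differences, with a median of -1.47. Among the 17, 16 were lower at an unadjusted p below 0.05, against 7.89% of all genes. Their mean level was 3.86 to 5.27 in SF1+ and 2.77 to 2.79 in Wnt+, the latter below all array medians. The 4 were Klrd1, a receptor chain of natural killer cells, with a difference of -3.23 (limma adjusted p = 0.0243), Lck, the T cell kinase, with -0.95 (limma adjusted p = 0.0359), the granule protein gene Nkg7, with -3.83 (limma adjusted p = 0.0396), and Il2rb, a chain of the interleukin 2 and 15 receptors, with -3.61 (limma adjusted p = 0.0453). Each of these 4 calls held only without SF1+ replicate 1 or Wnt+ replicate 1. Of 12 conventional dendritic cell markers 0 passed, and all 12 had negative differences, with a mean level of 4.46 to 4.89 in SF1+ and 3.65 to 4.11 in Wnt+. Among these 12, 9 were lower at an unadjusted p below 0.05, against 7.89% of all genes.

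Of 14 endothelial markers, 0 passed, and all 14 had negative differences, with a median of -1.50 and a mean level of 7.53 to 8.04 in SF1+ and 5.34 to 7.36 in Wnt+. Among the 14, 13 were lower at an unadjusted p below 0.05, against 7.89% of all genes. Pecam1, an adhesion molecule of endothelium, differed by -1.69 (SE 0.46, limma adjusted p = 0.16). Of 18 macrophage and pan-leukocyte markers 0 passed and 16 had negative differences, with a median of -0.26, and the group ranges of their mean level overlapped (6.12 to 7.53 in SF1+ and 5.93 to 6.73 in Wnt+). Ptprc, the pan-leukocyte antigen CD45, differed by -1.61 (SE 0.34, limma adjusted p = 0.115). B cell markers were dim, with 9 of 11 below the array median on every array, 0 past the test and a median difference of -0.10. With an unadjusted p below 0.05, 3 of 18 macrophage and pan-leukocyte markers and 2 of 11 B cell markers were lower.

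To see which genes ran most like each member, the root mean square difference between gene-centred log2 values over the 7 arrays was taken for 10030 candidate genes. It was computed for the 6 members whose values spanned at least 1 on the log2 scale. Since all points come from the same 7 libraries, the likeness is a description and holds the difference between the groups. For Irf7 the nearest genes were Siglech (0.350), Pcdh17, a protocadherin (0.407), and Klrd1 (0.431). For Irf8 they were Spib (0.117), Ifng (0.266) and Ptpn22, a phosphatase of lymphocytes (0.267). For Irf9 they were Slc16a11, a monocarboxylate transporter family gene (0.113), Fut2, a fucosyltransferase (0.174), and Stat2 (0.201), so that its partner in ISGF3 was the gene in place 3. Irf1 ran closest to Samhd1, a dNTP hydrolase induced by interferon (0.131), to Csprs (0.156) and to Parp12 (0.167). Irf3 ran closest to Syvn1 (0.108), Npr1 (0.108) and Zpr1 (0.113), and Irf5 to Dnase1l3 (0.0983), Stk4 (0.111) and Pramel12 (0.113).

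**Figure D4:**
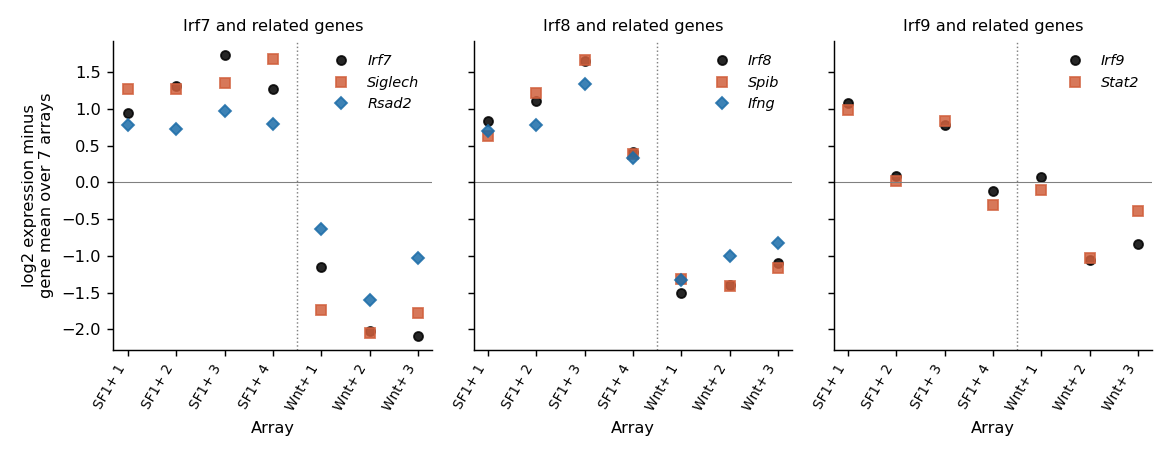
Log2 value minus the gene's mean over the 7 arrays (vertical axis) on each array, SF1+ left of the dotted line and Wnt+ right of it, for Irf7 with Siglech and Rsad2, Irf8 with Spib and Ifng, and Irf9 with Stat2. Spib follows Irf8 within a root mean square difference of 0.117, and Stat2 follows Irf9 within 0.201.

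In the authors' deposited table, a separate experiment with 4 pairs of mouse adrenocortical tumor cell line samples compares what its header calls Bio with vehicle. Of the 8 members, 7 in the authors' deposited table had a fold below 1 and 1 had a fold above 1, and 4 had a paired p below 0.05 (50.0%, against 35.5% of all genes), all lower (17.3% of all genes were lower at that level). Irf7 had a fold of 0.521 (p = 0.0475) and Irf2 a fold of 0.714 (p = 0.000856) in the authors' deposited table, and Irf8 a fold of 1.12 (p = 0.169). The authors' deposited table gives unadjusted p-values, and when these were adjusted here over all genes by the Benjamini-Hochberg method, 2 members, Irf1 (fold 0.885, adjusted p = 0.0499) and Irf2 (adjusted p = 0.0186), were below 0.05, as were 18.9% of all genes. For Irf1 this holds for its brightest transcript cluster only. Its second cluster had a fold of 0.988 (unadjusted paired p = 0.858) in the authors' deposited table. The sample values of these cell lines were not analysed here.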

How the data were processed

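Sorted adrenal cells of SF1+ (4 arrays) and Wnt+ (3 arrays) mice were compared, grouped by sample title. The deposited values are log2 expression per transcript cluster. RMA (the robust multi-array average) and oligo are named in the submitters' processing notes, and the sources used here give no versions. The method gives all arrays a common distribution, which hides changes of total RNA, and compresses dim genes. The authors' deposited table also gives linear fold changes and unadjusted p-values, per the file headers. A sheet for drawing holds 7 further columns of sample values, which stayed out.

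Of 28944 clusters, 23812 had a symbol, and 23508 matched a RefSeq gene by Entrez identifier. Taking each gene's cluster with the highest mean left 20719 genes, with no filter on dim genes. Of 9 symbols that match the family rule, 1 is not reported here, nor is 1 gene of the receptor, JAK and STAT list, which stays out of that list's counts. The files name no genome build, so only RefSeq promoter windows (GRCm38.p6) carry coordinates. The fit used limma 3.58.1 (lmFit and eBayes, R 4.3.3, prior degrees of freedom 1.98), two-sided, with Benjamini-Hochberg adjustment over all genes and a threshold of 0.05. The number of arrays limits the precision, and p-values measure the spread between sorts of pooled adrenals.

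The members, the gene lists and the alternatives were chosen with earlier results of these data known. All members are named, with at most 6 genes per list (smallest p, or a textbook tie to a member) and, for each member spanning at least 1 on the log2 scale, the 3 genes of most similar pattern among named genes brighter than the median gene. Alternatives were the series matrix values, each array left out, a replicate block, only genes above the median, arrays centred on their medians, another quantile normalisation, array weights, trended and robust moderation, averaging the clusters of a gene, testing all clusters, a threshold of 0.01, and adjusted p-values of the authors. Plotting used Python 3.11.15 and matplotlib 3.10.9.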

Additional observations from a re-analysis of the deposited data

Results flagged for a closer look

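The 4 SF1+ arrays were examined for 124 genes and list means, and in 4 of these 1 array stood far from the other 3 by Dixon's test, and chance alone gives this in about 5% of cases. Irf1 was highest in SF1+ replicate 1, at 8.74, with the other arrays between 8.33 and 8.38. Dhx58, the RIG-I-like receptor, was lowest in SF1+ replicate 2, at 3.83. Csprs, which ran close to Irf1, was lowest in SF1+ replicate 4, at 4.54. Cox6a2, a plasmacytoid dendritic cell marker in the lists, was lowest in SF1+ replicate 1, at 4.22. No technical or biological cause was tested for any of the 4.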

How the results depend on the processing

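Every member kept the sign of its difference under all 18 alternatives, except that the filter on dim genes removed Irf4 and gave it no value. The threshold of 0.01, the authors' p-values, trended and robust moderation, testing all clusters and the filter leave a member's difference as it was. The series matrix values are the same values again, so for all these settings the sign was fixed beforehand. For the 6 members whose groups did not overlap, omitting an array or using the replicate block could not change the sign either. Calls were less stable than signs: Irf7 passed in 10 of 18 alternatives and Irf8 in 6 of 18, the series matrix values being among them for both. The count of genes past the threshold was 53. It ranged from 1 to 312 when 1 array was left out. It was 0 with the replicate block, 221 with genes above the median, 27 with median-centred arrays, 33 with array weights, 155 with trended and robust moderation, 10 over all clusters, 1 at a threshold of 0.01 and 0 with the authors' p-values adjusted, and 68 with a further quantile normalisation (15 higher and 53 lower, against 11 and 42). For family members the count was 2, and it ranged from 0 to 3 when 1 array was left out. It was 0 with the replicate block, 3 with genes above the median and with trended and robust moderation, 1 (Irf7) with median-centred arrays, array weights and all clusters, and 0 at a threshold of 0.01 and with the authors' p-values adjusted. With the clusters of a gene averaged, Irf1 differed by -1 (limma adjusted p = 0.185). Irf1 passed with genes above the median (limma adjusted p = 0.0368) and with trended and robust moderation (limma adjusted p = 0.0397). The cause was not tested. Deviations of same-numbered arrays from their group means had correlations of -0.217, 0.0344 and -0.214 over genes. For differently numbered arrays the correlations ran from -0.2 to 0.301. With so few arrays these values cannot settle whether the replicate numbers pair the samples. With the replicate block Irf7 differed by -3.08 (limma adjusted p = 0.272) and Irf8 by -2.53 (limma adjusted p = 0.257).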

Other observations

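The IRF2-binding corepressors, which restrain transcription together with IRF2, were measured at 3 genes, and 0 of them passed the test. Irf2bp2 differed by -0.19 (limma adjusted p = 0.74), Irf2bp1 by 0.12 (limma adjusted p = 0.812) and Irf2bpl by -0.06 (limma adjusted p = 0.844). Their median difference was -0.06, beside -0.54 for Irf2 itself. Ifnl3, a type III interferon of epithelial defence, differed by -0.66 (SE 0.15, limma adjusted p = 0.127), with every Wnt+ array below every SF1+ array. Mrap, the accessory protein of the ACTH receptor, was the 1 adrenocortical marker past the test, higher by 1.68 on the log2 scale (SE 0.18, limma adjusted p = 0.0396). It passed the test in 3 of 7 omissions of an array (SF1+ replicate 1, Wnt+ replicate 1 and Wnt+ replicate 3). All 12 adrenocortical markers were higher at an unadjusted p below 0.05, against 7.61% of all genes. In 10 of them every Wnt+ array lay above every SF1+ array, against 7.04% of all genes.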
